A study of Homo sapiens with 6 samples.

Results

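The smooth-muscle contractile genes of myoepithelial cells were followed here as 10 rows of the gene count table, found by symbol among its 26334 genes. They were the actins ACTA2 and ACTG2, the actin-binding proteins TAGLN, CNN1, CNN2 and CALD1, the tropomyosins TPM1 and TPM2, the myosin light chain MYL9 and the kinase MYLK. The list was drawn up because ACTA2 was higher in shWDR5 than in shLuc cells, so the shWDR5 against shLuc values of its members are given as a description with no p-value. ACTA2 and TAGLN carried the main difference (2.84-fold and 4.72-fold higher in shWDR5), while CNN1 had 1 read in all and MYL9 stood lower.

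MCF10DCIS.com (MCF10DCIS) is a human breast cancer cell line of the basal type that models ductal carcinoma in situ. The 3 shLuc libraries came from cells infected with a pRSI-U6 vector carrying an shRNA against luciferase, and the 3 shWDR5 libraries from cells infected with the same backbone carrying an shRNA against WDR5, the core subunit of histone H3 lysine 4 methyltransferase complexes. Both groups therefore also carried TagRFP and the puromycin resistance gene, were selected with 3 µg/ml puromycin and were grown in DMEM/F12 with 5% horse serum, L-glutamine, antibiotics, HEPES and calcium chloride. The study describes pooled WDR5 hairpins for its transductions, whereas the labels of these libraries name a single shWDR5 vector; no second control hairpin was analysed here, and the groups come from a single cell line. The labels do not say whether replicates were separate cultures, so the tests measure only the spread between these libraries.

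Myoepithelial cells form the contractile outer layer of the mammary duct and squeeze milk along it in response to oxytocin. They are epithelial cells that borrow the smooth-muscle machinery: filaments of smooth-muscle alpha-actin, stiffened by tropomyosin and held in check by caldesmon and calponin, slide on myosin once its regulatory light chain is phosphorylated by myosin light-chain kinase. Many of these genes are textbook targets of serum response factor (SRF), which binds the CArG box and is driven by myocardin in smooth muscle and by the myocardin-related MRTF factors, which sense free actin, in other cells. Smooth-muscle alpha-actin staining of the myoepithelial layer is used in pathology to tell in situ from invasive carcinoma.

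The upstream sequences of the members are shown because the CArG box is an element that many of these genes are known to share. RefSeq promoter windows (build GRCh38.p14) were found for 8 of the 10 members, with 13 start sites in all; TAGLN and MYL9 had none. In the 250 bases before each start, the CArG box (searched on both strands, which its symmetry makes the same search) was present at 3 start sites of 3 members, ACTG2, MYLK and CNN2, against 1.16% of all 35116 windows. ACTA2 held no exact match, but its downstream start site had a pair of CArG boxes in which 1 of the 6 central bases was C or G, a form present in 5.96% of all windows. Such a near match also lay before 1 start site of CALD1, and no match of either form lay before the listed starts of TPM1, TPM2 and CNN1. The stretches below run 5′ to 3′ on the gene's strand, end where an annotated untranslated region or a further match begins, and carry the matches in capitals.
ACTA2, chr10:88952774-88953023, minus strand: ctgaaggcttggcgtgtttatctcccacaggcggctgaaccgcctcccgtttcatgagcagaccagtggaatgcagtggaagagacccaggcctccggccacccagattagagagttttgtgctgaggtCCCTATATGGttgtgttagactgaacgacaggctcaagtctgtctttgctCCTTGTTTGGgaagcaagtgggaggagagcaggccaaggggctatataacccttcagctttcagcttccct
CNN2, chr19:1026358-1026580, plus strand: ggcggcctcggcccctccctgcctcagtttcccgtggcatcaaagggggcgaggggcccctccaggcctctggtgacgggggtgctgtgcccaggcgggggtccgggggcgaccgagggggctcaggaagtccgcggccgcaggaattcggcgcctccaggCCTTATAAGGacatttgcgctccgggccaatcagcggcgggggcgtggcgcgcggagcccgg
ACTG2, chr2:73892758-73892934, plus strand: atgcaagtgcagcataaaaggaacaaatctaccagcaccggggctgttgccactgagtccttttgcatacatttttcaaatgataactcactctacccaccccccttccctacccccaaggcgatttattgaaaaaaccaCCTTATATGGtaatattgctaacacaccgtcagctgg
In ACTA2 the matches began 121 and 71 bases upstream of the start, in CNN2 89 bases upstream, and in ACTG2 110 bases upstream, with a second box (CCTTTTTAGG) 73 bases upstream. The box of MYLK (CCTTTTATGG, 94 bases upstream) belonged to a start site only 10499 bases from the gene's distal end, the start of the short kinase-related transcript telokin. These matches are letters in a window, and binding was not measured in these libraries.

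The 6 libraries held 38218108 to 57640167 counted reads. WDR5 checked the labels: it read 52.6, 48.5 and 51.3 CPM (counts per 1000000 reads, on library sizes scaled by the TMM method) in shLuc and 23.4, 24.4 and 20.8 CPM in shWDR5, a log2 fold change of -1.15 ± 0.07 (SE; edgeR quasi-likelihood adjusted p = 8.67e-07, n = 3 per group). Of 16117 genes tested, 56.5% passed an adjusted p of 0.05, 26.6% higher and 29.9% lower in shWDR5, so a call alone was common. The cells read for basal and luminal keratins alike, compared per length in RPKM (CPM divided by the exon length in kilobases). In shLuc the basal KRT17 stood at 1372 ± 62 (SD), KRT5 at 356 ± 16 and KRT14 at 44.1 ± 4.1. The luminal KRT7 (898 ± 45), KRT8 (894 ± 34) and KRT18 (890.3 ± 45.6) lay between KRT17 and KRT5, and KRT19 stood at 0.893 ± 0.047. KRT7, KRT8, KRT17 and KRT18 were named after their values were seen. The fibroblast genes LUM and COL3A1 had 0 and 1 reads over all 6 libraries. Other stromal genes were read, with COL1A1 at 22.1 ± 0.7 CPM (SD) and FAP at 40.2 ± 5.0 CPM in shLuc.

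Among the actins, ACTA2 (smooth-muscle alpha-actin, chr10:90694831-90751147 in hg19, minus strand, 1851 exonic bases) read 5.81, 4.72 and 4.66 CPM in shLuc. In shWDR5 it read 15.0, 13.8 and 14.6 CPM. Every shWDR5 library stood above every shLuc library, and the lowest shWDR5 value was far above the highest shLuc value. The log2 fold change was 1.50 ± 0.10 (SE; 95% interval 1.29 to 1.72), and 2.6% of all genes tested had a change at least as large in the same direction. In bulk RNA, more cells with ACTA2 and more ACTA2 RNA per cell cannot be told apart.

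ACTG2 (smooth-muscle gamma-actin of the gut and other visceral muscle, chr2:74120093-74146780) had 18, 16 and 7 reads in shLuc and 21, 14 and 11 reads in shWDR5. The groups overlapped, and the 95% interval of the log2 fold change ran from -0.88 to 0.81, so the value of ACTA2 lay outside it, while a change within these bounds was not detectable at this depth. Smooth-muscle and cytoplasmic actins are almost the same protein and share much coding sequence, and how the authors' counting treated reads that match several actins is not given in the sources used here.

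The cytoplasmic actins kept nearly all reads of the 6 actin genes. ACTA2 made up 0.0491%, 0.0403% and 0.0426% of reads over ACTA2, ACTG2, ACTA1, ACTC1, ACTB and ACTG1 in shLuc, and 0.120%, 0.115% and 0.120% in shWDR5. Thus the shares did not overlap between groups, but smooth-muscle alpha-actin stayed a trace of the actin RNA in both. ACTB, which encodes cytoplasmic beta-actin, read 5940 ± 229 CPM (SD) in shLuc and 5910 ± 177 CPM in shWDR5 (log2 fold change -0.01 ± 0.05, SE; edgeR adjusted p = 0.918; the sign turned positive with another scaling), and ACTG1, cytoplasmic gamma-actin, rose slightly from 5545 ± 294 to 6284 ± 271 CPM (0.18 ± 0.06, SE; edgeR adjusted p = 0.0231), a call that did not hold on total-count scaling (edgeR adjusted p = 0.0794) or without shLuc replicate 3, shWDR5 replicate 1 or shWDR5 replicate 2 (0.14, 0.15 and 0.18).

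**Figure D1:**
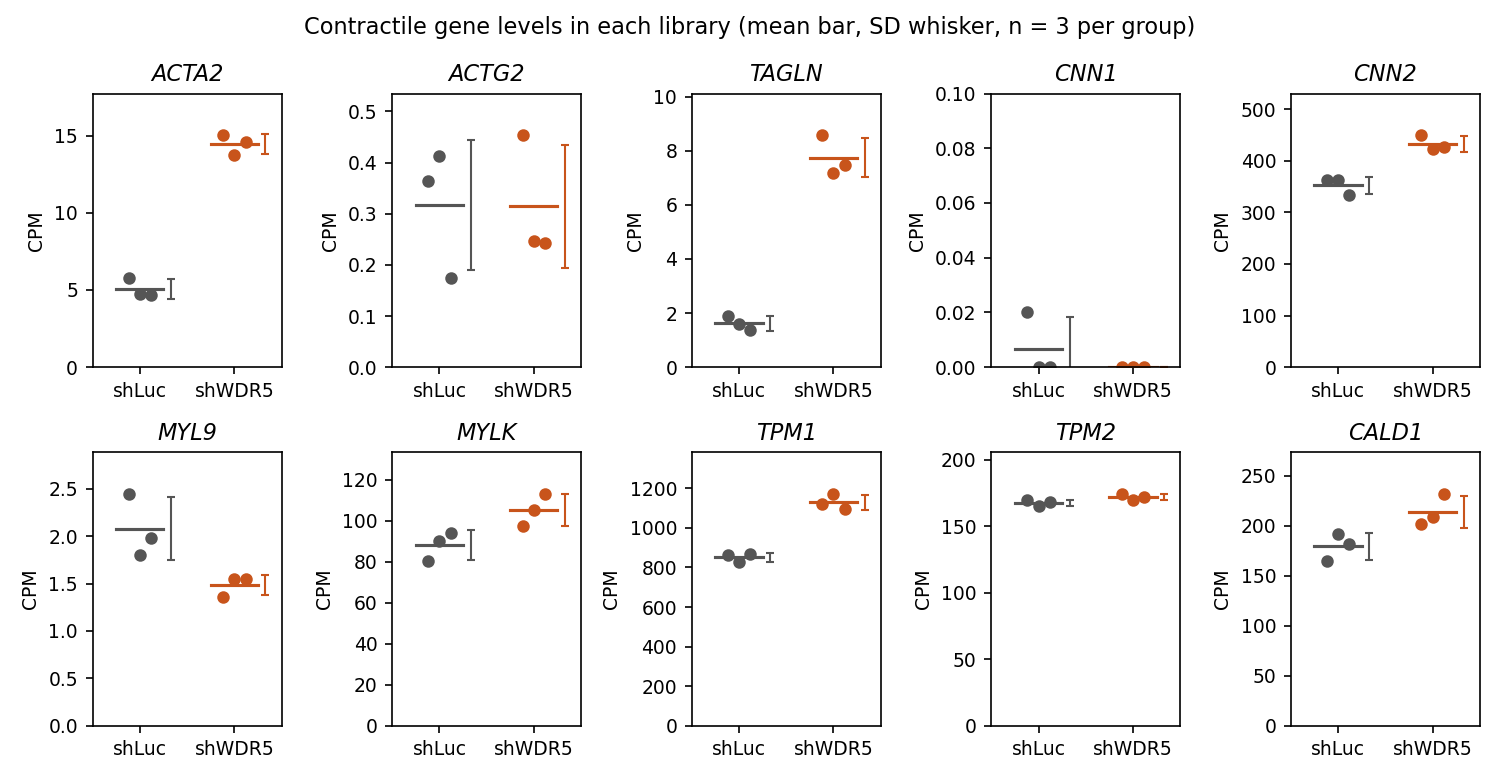
Level of each contractile gene in every library in CPM (linear axes from 0; points are libraries, horizontal bars the group mean and whiskers the SD, n = 3 shLuc and 3 shWDR5). ACTA2 and TAGLN separate the groups widely, the abundant genes CNN2, TPM1, MYLK and CALD1 by less, and MYL9 stands lower in shWDR5.

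Of the actin-binding members, TAGLN showed the largest difference on the list. TAGLN encodes transgelin (SM22-alpha), a calponin-family protein that is an early marker of smooth-muscle differentiation (chr11:117070040-117075508, plus strand, 1557 exonic bases). It read 1.90, 1.599 and 1.36 CPM in shLuc and 8.57, 7.18 and 7.48 CPM in shWDR5. The groups did not overlap, and the log2 fold change was 2.24 ± 0.14 (SE; 95% interval 1.94 to 2.54), a size that 0.856% of all genes tested reached in the same direction. These values rested on 55 to 94 reads per shLuc library and 339 to 408 reads per shWDR5 library.

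The calponins bind actin and restrain myosin. CNN1, the smooth-muscle calponin and a late differentiation marker (chr19:11649532-11661138), had 1 read in a single shLuc library and none in the other 5 libraries. A sum of 0 over the 3 shWDR5 libraries allows up to 0.0202 CPM (3 counts over the group, counting error only), so CNN1 was not detectable at this depth in shWDR5 and no fold was formed. CNN2, the calponin of non-muscle cells (chr19:1026274-1039067), was abundant. It read 362, 362 and 334 CPM in shLuc and 449, 422 and 426 CPM in shWDR5, with no overlap and a log2 fold change of 0.30 ± 0.05 (SE; 95% interval 0.17 to 0.42).

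Caldesmon, the product of CALD1, blocks myosin from actin until calcium signalling releases it (chr7:134464164-134655480). CALD1 read 165, 191 and 182 CPM in shLuc and 202, 208 and 232 CPM in shWDR5. The groups did not overlap, but the gap was small beside the spread within each, and the log2 fold change was 0.26 ± 0.07 (SE; 95% interval 0.09 to 0.42). The gene makes a long smooth-muscle and a short non-muscle caldesmon, and a count per gene does not separate them.

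The tropomyosins are coiled coils that lie along the actin filament and set which myosins may bind. TPM1 (chr15:63334838-63364113) was the most abundant member, with 864, 826 and 867 CPM in shLuc and 1120, 1173 and 1098 CPM in shWDR5. The groups were well apart, at a log2 fold change of 0.41 ± 0.05 (SE; 95% interval 0.29 to 0.52). TPM2 (chr9:35681990-35690053) read 170, 165 and 168 CPM in shLuc and 175, 170 and 172 CPM in shWDR5. The libraries of the groups nearly touched, the log2 fold change was 0.04 ± 0.05 (SE; 95% interval -0.07 to 0.14), and its sign turned to -0.02 with total-count scaling. TPM1 and TPM2 both make muscle and non-muscle forms by alternative exons, which these counts pool.

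MYL9 and the kinase gene MYLK, the myosin-motor members of the list, differed in opposite directions. MYL9 is a regulatory light chain that the kinase phosphorylates (chr20:35169887-35178226). It read 2.45, 1.81 and 1.98 CPM in shLuc and 1.36, 1.55 and 1.54 CPM in shWDR5. All shWDR5 values lay below all shLuc values, the highest of which was set by shLuc replicate 1. The log2 fold change was -0.49 ± 0.15 (SE; 95% interval -0.83 to -0.16). It was -0.33 without that library and -0.48 with DESeq2, and it passed the threshold in neither. MYLK, myosin light-chain kinase (chr3:123331143-123603149), read 80.2, 89.95 and 94.3 CPM in shLuc and 97.4, 106 and 113 CPM in shWDR5. The groups lay next to each other without overlap, at a log2 fold change of 0.26 ± 0.08 (SE; 95% interval 0.09 to 0.43). MYL12A and MYL12B, more abundant light chain genes outside the 10 members, were named after their values were seen. MYL12A rose from 214 ± 7 to 246 ± 10 CPM (SD, edgeR adjusted p = 0.00879). MYL12B rose from 303 ± 14 to 383 ± 7 CPM (SD, edgeR adjusted p = 0.000303).

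Counted together, 9 of the 10 members passed the filter on low counts (all but CNN1), and 6 of them were called higher (ACTA2, TAGLN, TPM1, CNN2, MYLK and CALD1) and 1 lower (MYL9), while TPM2 and ACTG2 were not called; over all genes tested the shares were 26.6% and 29.9%. Since the contrast chose the list, these counts are a description only. By the study's stricter criteria (absolute log2 fold change of at least 0.6, adjusted p under 0.05 and RPKM above 0.5), which 7.9% of all genes met as higher and 10.5% as lower, only ACTA2 and TAGLN remained. Groups did not overlap for 7 members in the higher direction and for 1 in the lower direction, where 29.9% and 32.4% of all genes tested did the same. Without shWDR5 replicate 3, CALD1 (0.19 ± 0.07, SE) and MYLK (0.20 ± 0.08, SE) no longer passed, which left 4 members called higher; MYLK was also lost on total-count scaling (0.20 ± 0.08, SE).

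**Figure D2:**
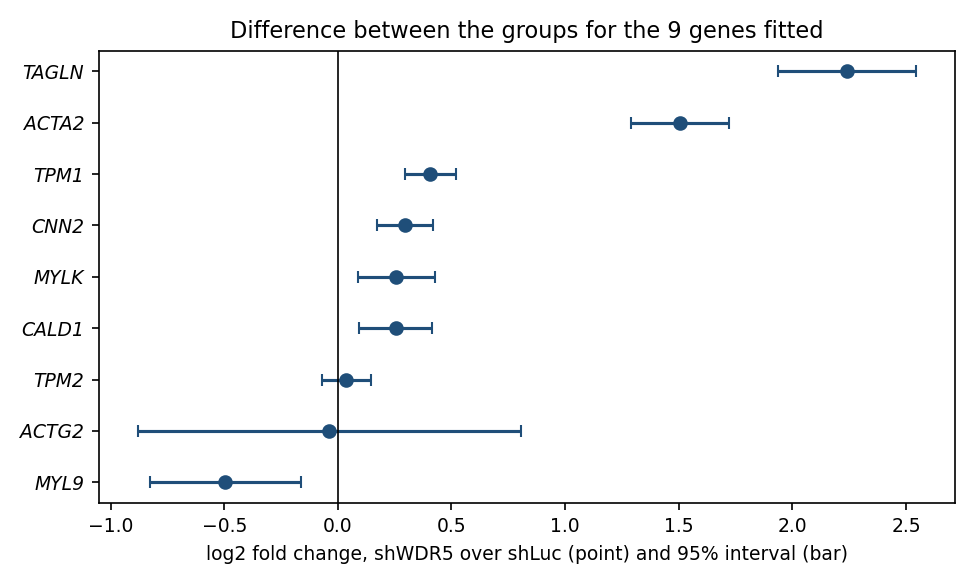
Log2 fold change of shWDR5 over shLuc for the 9 contractile genes that passed the filter, with 95% intervals from the edgeR fit (n = 3 libraries per group). TAGLN and ACTA2 lie at 2.24 and 1.50, TPM1, CNN2, MYLK and CALD1 between 0.26 and 0.41, TPM2 and ACTG2 at 0 within their intervals, and MYL9 at -0.49.

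Compared per length, in RPKM, the members spanned several orders of magnitude. In shLuc the order was TPM1 (255 ± 7 RPKM, SD, n = 3), CNN2 (138 ± 6), TPM2 (107 ± 1), CALD1 (32.6 ± 2.5), MYLK (10.8 ± 0.9), ACTA2 (2.73 ± 0.35), MYL9 (1.74 ± 0.28), TAGLN (1.04 ± 0.17), ACTG2 (0.24 ± 0.10) and CNN1 (0.0035 ± 0.0061). Each neighbour in this order was separate over the 3 libraries, though CNN1 rested on its single read. In shWDR5 the order changed at only 1 point: TAGLN (4.97 ± 0.47 RPKM) passed MYL9 (1.24 ± 0.09 RPKM), with no overlap between them. ACTA2 reached 7.81 ± 0.35 RPKM there and stayed below MYLK (12.9 ± 1.0 RPKM). The members with the largest relative differences were thus among the least abundant ones that were read.

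**Figure D3:**
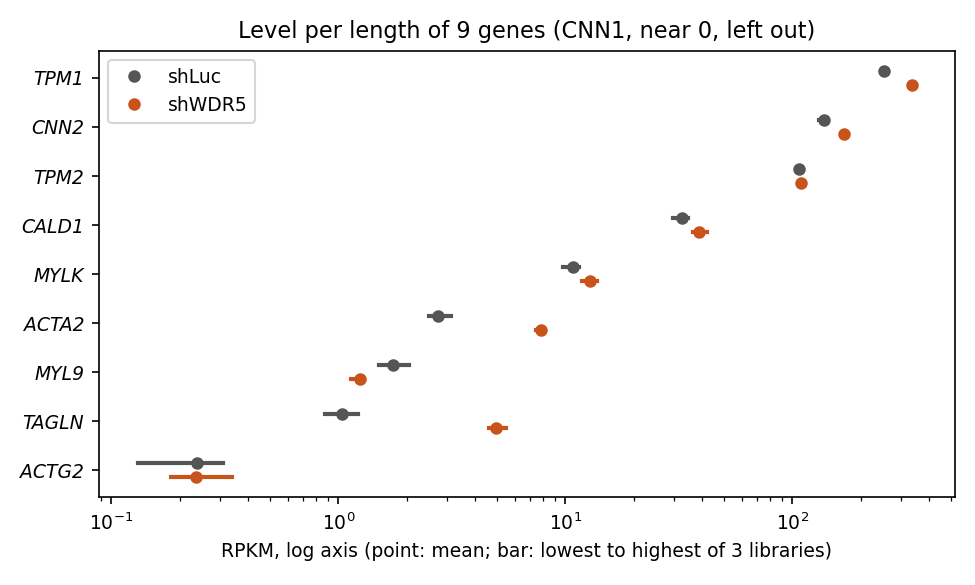
Level per length (RPKM, log axis) of 9 contractile genes in shLuc and shWDR5; points are means and bars run from the lowest to the highest of the 3 libraries. TPM1, CNN2 and TPM2 lie above 100 RPKM in both groups, and TAGLN moves past MYL9 in shWDR5.

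The summed level of the 10 genes was 1643 to 1654 CPM in shLuc and 2065 to 2101 CPM in shWDR5. TPM1 alone supplied 50.3% to 52.4% of these reads in shLuc and 53.2% to 55.8% in shWDR5. ACTA2 and TAGLN together supplied 0.364% to 0.467% in shLuc and 0.996% to 1.14% in shWDR5. The sum therefore followed the tropomyosin, calponin and caldesmon genes that non-muscle cells also use.

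A pair of antisense genes overlapped members in the deposited annotation. ACTA2-AS1, on the opposite strand, shared 516 exonic bases with ACTA2 (27.9% of its exons), and it had 2, 2 and 3 reads in shLuc and 0, 8 and 3 reads in shWDR5. MYLK-AS1 shared 133 exonic bases (1.63%) with MYLK and read 0.87 ± 0.22 CPM (SD) in shLuc and 1.20 ± 0.18 CPM in shWDR5 (log2 fold change 0.44 ± 0.21, SE; edgeR adjusted p = 0.0928). The library kit named in the labels does not mark strand, so reads of a gene and its antisense partner cannot be told apart where they overlap.

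The genes whose profile over the 6 libraries was closest to that of ACTA2 were PLLP, LINC00893, KIF26B, HSD17B2 and VAMP5. The measure was the root-mean-square difference of log2 CPM, each gene centred on its own mean, and it came to 0.05, 0.05, 0.07, 0.07 and 0.07 in that order. Over the same 6 libraries the difference from ACTA2 was 0.37 for TAGLN and 0.56 to 0.99 for the other 7 members fitted. These data hold a single contrast, and the log2 fold changes of the 5 genes ran from 1.38 to 1.55 beside 1.50 for ACTA2. PLLP, which encodes the membrane-raft protein plasmolipin, read 1.42 ± 0.17 CPM (SD) in shLuc and 3.94 ± 0.11 CPM in shWDR5.

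The other genes of the smooth-muscle program were taken from a list of 24. Only 15 passed the filter, and of these 1 rose, 8 fell and 6 did not pass the test, which is 6.67% and 53.3% against 26.6% and 29.9% of all genes tested. The list's median log2 fold change was -0.24, and that of all genes tested was -0.01. PDLIM7, a PDZ-LIM adaptor on actin bundles, rose (195 ± 19 to 246 ± 14 CPM, SD; edgeR adjusted p = 0.00338). The LIM protein gene CSRP1 fell from 258 ± 18 to 173 ± 10 CPM (SD; edgeR adjusted p = 4.09e-05). PDLIM3 (log2 fold change -1.44 ± 0.29, SE) and SYNPO2 (-0.57 ± 0.09, SE), which encode Z-disc and actin-bundle proteins, fell as well. PDLIM3 was little read, at 0.57 ± 0.09 CPM (SD) in shLuc and 0.21 ± 0.05 CPM in shWDR5. Without shLuc replicate 2, 2 genes of this list rose and 5 fell, and without shWDR5 replicate 2, 2 rose.

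The most restricted smooth-muscle genes were near or at 0. MYOCD, which encodes myocardin, had no read in any library. DES, the muscle intermediate filament desmin, had 0 or 1 reads in shLuc and 0 to 3 in shWDR5. MYH11, the smooth-muscle myosin heavy chain, read 1.09 ± 0.11 CPM (SD) in shLuc and 1.34 ± 0.21 CPM in shWDR5, with a log2 fold change of 0.29 ± 0.17 (SE; edgeR adjusted p = 0.175). In the libraries where ACTA2 and TAGLN stood higher, CNN1 and MYOCD had no read and DES had at most 3.

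The non-muscle actin and myosin apparatus was read throughout, and all 24 listed genes passed the filter. Of these, 12 rose, 5 fell and 7 did not pass the test (median log2 fold change 0.14). Rises made up 50% and falls 20.8%, against 26.6% and 29.9% of all genes tested. FLNA, the actin cross-linker filamin A, rose from 21.1 ± 3.4 to 66.7 ± 4.8 CPM (SD; edgeR adjusted p = 1.02e-06). TMSB4X (thymosin beta-4, which holds free actin monomers) rose by 0.65 ± 0.07 on the log2 scale (SE), ZYX (zyxin, of focal adhesions and stress fibers) by 0.42 ± 0.07 and the essential light chain gene MYL6 by 0.38 ± 0.07. The falls included TPM4, a non-muscle tropomyosin (-0.42 ± 0.05, SE), MYH10, the heavy chain of non-muscle myosin IIB (-0.40 ± 0.05, SE), VCL, which encodes vinculin (-0.20 ± 0.05, SE), and ACTN4 (alpha-actinin-4, -0.20 ± 0.06, SE). ACTN4 lost its call without shLuc replicate 1 and without shWDR5 replicate 2, and in the latter case 3 genes of the list fell. With total-count scaling 8 genes of the list rose and 6 fell. The direction therefore differed within the tropomyosins, with TPM1 higher and TPM4 lower.

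SRF and both MRTF genes were read, unlike MYOCD. SRF rose from 57.99 ± 0.75 to 77.5 ± 2.5 CPM (SD; log2 fold change 0.42 ± 0.05, SE; edgeR adjusted p = 8.53e-05). MKL1, which encodes MRTF-A, read 45.1 ± 0.7 CPM in shLuc and 46.6 ± 2.7 CPM in shWDR5 (SD; edgeR adjusted p = 0.545). MKL2, which encodes MRTF-B, read 48.9 ± 3.3 and 48.9 ± 1.0 CPM (SD; edgeR adjusted p = 0.994). On total-count scaling both log2 fold changes were slightly negative. The list of SRF and MRTF factors and targets shares FLNA, ZYX, VCL, MYH9, ACTB and ACTG1 with the previous list. Of its 23 genes tested, 11 rose, 4 fell and 8 did not pass the test, with a median of 0.08. Rises made up 47.8% and falls 17.4%, against 26.6% and 29.9% of all genes tested. CTGF, a secreted matricellular protein, rose from 79.2 ± 4.7 to 218 ± 8 CPM (SD; edgeR adjusted p = 1.06e-07), and the early growth response factor EGR1 rose from 366 ± 37 to 490 ± 7 CPM (SD; edgeR adjusted p = 0.000474). FILIP1L rose too, but at 0.20 ± 0.09 to 0.60 ± 0.16 CPM (SD; edgeR adjusted p = 0.00399). CRIM1 (-0.86 ± 0.05, SE), the SRF partner ELK4 (-0.75 ± 0.13, SE) and TGFB1I1, which encodes the adhesion protein Hic-5 (-0.40 ± 0.10, SE), fell. With total-count scaling 8 genes of this list rose and 4 fell.

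Lineage markers differed between the same libraries, and their part in the ACTA2 and TAGLN differences was not tested. Of the 22 myoepithelial and basal markers, all tested, 15 rose, 5 fell and 2 did not pass the test. Rises made up 68.2% and falls 22.7%, against 26.6% and 29.9% of all genes tested. The summed level of the 22 markers ran from 22882 to 25693 CPM in shLuc and from 38651 to 43427 CPM in shWDR5. KRT5 rose from 820 ± 37 to 1546 ± 89 CPM (SD; edgeR adjusted p = 9.47e-07), KRT14 from 72.1 ± 6.7 to 176 ± 18 CPM (SD; edgeR adjusted p = 1.36e-06) and the basal regulator TP63 from 96.6 ± 8.4 to 129 ± 13 CPM (SD; edgeR adjusted p = 0.0017). SNAI2 rose by 1.28 ± 0.08 on the log2 scale (SE) and VIM (vimentin) by 1.21 ± 0.07. The paper treats both as mesenchymal markers. In this cell line it reports less SNAI2 protein after WDR5 silencing, and vimentin protein only partly affected. It also reports SNAI2 RNA as lower in most of its patient-derived xenografts. The RNA of both genes thus stood higher here, in a measure or in samples unlike those. The 5 that fell were NGFR (-2.22 ± 0.10, SE), the oxytocin receptor gene OXTR (-1.12 ± 0.18, SE), MME (CD10, -0.89 ± 0.27, SE), DLL1 (-0.51 ± 0.07, SE) and EGFR. Among the 5, OXTR read 1.69 ± 0.25 CPM (SD) in shLuc and 0.76 ± 0.09 CPM in shWDR5. MME read 1.63 ± 0.36 CPM (SD) in shLuc and 0.85 ± 0.35 CPM in shWDR5, and its groups overlapped. MME lost its call without any 1 of shLuc replicates 2 and 3 and shWDR5 replicates 1 and 3. EGFR was named after its value was seen.

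Luminal markers went both ways: of 13 tested among 16, 5 rose, 4 fell and 4 did not pass the test. The shares of 38.5% and 30.8% stood beside 26.6% and 29.9% of all genes tested. Summed over the luminal list, the level was 5439 to 5742 CPM in shLuc and 5705 to 6173 CPM in shWDR5. KRT7 rose by 0.32 ± 0.06 on the log2 scale (SE), and the log2 fold changes of KRT8 (0.04 ± 0.06, SE) and KRT18 (-0.12 ± 0.06, SE) did not pass the test. KRT19, at 1.31 ± 0.07 CPM (SD) in shLuc and 4.68 ± 0.33 CPM in shWDR5 (1.83 ± 0.12, SE), and MUC1 (1.28 ± 0.09, SE) had the largest rises in log2 fold change, followed by PROM1 (0.64 ± 0.13, SE) and CD24 (0.59 ± 0.11, SE). FOXA1 (-0.41 ± 0.10, SE), GATA3 (-0.39 ± 0.08, SE) and EPCAM (-0.33 ± 0.07, SE) fell.

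Stromal cells are the other usual source of ACTA2 and TAGLN in breast tissue. Of 16 stromal markers 10 passed the filter, none rose (1 did without the low-count filter), 5 fell and 5 did not pass the test. Rises made up 0% and falls 50%, against 26.6% and 29.9% of all genes tested. The summed level of the 16 markers was lower in shWDR5 (109 to 115 CPM) than in shLuc (143 to 153 CPM). DCN, LUM, COL3A1, COL1A2 and POSTN had at most 4 reads in any library, and the leukocyte gene PTPRC at most 7 (these 6 were named after their values were seen). MCAM (-1.62 ± 0.09, SE), PECAM1 (-0.71 ± 0.09, SE), COL1A1 (-0.50 ± 0.08, SE) and FAP (-0.42 ± 0.09, SE) fell in log2 fold change. In shLuc COL1A1 read 22.1 ± 0.7 CPM (SD) and FAP 40.2 ± 5.0 CPM. COL1A2 had no read in shLuc and 1, 4 and 2 reads in shWDR5, too few to be tested. All libraries came from a single cultured cell line, so reads of these genes do not show that stromal cells were present. The bearing of these genes on the ACTA2 and TAGLN differences was not tested.

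TGF-beta is a classical inducer of ACTA2, and the study asked how WDR5 bears on that pathway. Of 16 genes of ligands, receptors, SMADs and feedback, all tested, 6 rose, 7 fell and 3 did not pass the test (median log2 fold change -0.0027). Rises made up 37.5% and falls 43.8%, against 26.6% and 29.9% of all genes tested. The study itself names several of the 16, TGFB1, TGFBR2 and LTBP2 included, so this list is not independent of it. TGFB1 fell from 23.3 ± 1.6 to 14.4 ± 1.0 CPM (SD; edgeR adjusted p = 4.03e-05), while ACTA2 and TAGLN stood higher in the same libraries. TGFB3 (-0.46 ± 0.09, SE), the co-receptor gene TGFBR3 (-0.52 ± 0.09, SE) and SMAD3 (-0.45 ± 0.05, SE), which carries the signal to the nucleus, fell. TGFBR1, the type I receptor, rose from 29.3 ± 2.2 to 44.4 ± 4.5 CPM (SD; edgeR adjusted p = 0.000187). The feedback genes SMAD7 (0.52 ± 0.08, SE) and SKIL (0.69 ± 0.15, SE) and the latent-binding protein gene LTBP2 (0.47 ± 0.06, SE) also rose. The paper reports TGFBR2 and LTBP2 as lower in most of its WDR5-silenced patient-derived xenografts. In this cell line TGFBR2 fell (-0.27 ± 0.06, SE), whereas LTBP2 went the other way.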

How the data were processed

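RNA-seq was performed by the authors on poly-A selected TruSeq libraries (HiSeq 2000) of shLuc and shWDR5 MCF10DCIS cells. The submitters' processing notes name TopHat2 2.1.0, featureCounts, edgeR 3.2.2 and hg19; counting options and annotation are not given in the sources used here. The authors deposited raw read counts per gene with exon coordinates and lengths, which were used as they stand; their table of fold changes and p-values was not used.

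Counts (38218108 to 57640167 per library) were filtered with filterByExpr (minimum count 10), TMM-scaled and tested with edgeR 4.0.16 (glmQLFit and glmQLFTest, prior count 0.125, R 4.3.3) over 16117 genes with Benjamini-Hochberg adjustment; a gene was called at an adjusted p under 0.05. SE came from the fit's information matrix. RPKM used the deposited exon lengths. Alternatives were RLE and total-count scaling, DESeq2 1.42.0, no filter, a replicate block, the study's criteria and leaving out each library. The fit was checked on simulated counts with a small share of genes changed, balanced up and down, at a fixed dispersion. Such counts do not test the scaling where many genes differ, as here. No pair of replicates agreed within sampling noise.

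The members and lists were chosen with earlier results of these data known. Named were all members, WDR5, up to 4 called genes per list and direction, 12 fixed genes, genes with overlapping exons and the 5 closest profiles to ACTA2. Some listed genes and 1 list are not reported here.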

Additional observations from a re-analysis of the deposited data

How the results depend on the processing

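The calls of all genes (4291 higher, 4821 lower) stayed within 1.5 times under other scalings, DESeq2, no filter and the replicate block (4901 and 5511), and fell to 1274 and 1688 by the study's criteria; leaving out 1 library gave 3803 to 4263 higher and 4271 to 4584 lower. Total-count scaling moved the share of higher calls from 47.1% to 40.3%. Same-numbered libraries deviated together at r = 0.37, 0.04 and 0.12, and unlike-numbered ones at -0.31 to 0.21. These values do not settle whether the numbers pair the libraries. The labels state no pairing, so the main fit used none, and the cause of the extra calls with the block was not tested. Members called higher numbered 6, 2 by the study's criteria and 4 to 6 without 1 library. Members called lower numbered 1 (MYL9), 0 with DESeq2, 0 by the study's criteria and 0 to 1 without 1 library (0 without shLuc replicate 1). The other listed genes called higher ran from 50 to 54 and lower from 38 to 45 without 1 library, and WDR5 from -1.20 to -1.09. The cause of these changes was not tested.

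Among the named genes, signs turned only for some that were not called. Without 1 library, ACTG2 ran from -0.38 to 0.15 (turned values 0.11, 0.15, 0.13 and 0.097), MKL2 from -0.030 to 0.042 (turned values -0.030, -0.0051, -0.0058 and -0.0099) and ACTB from -0.040 to 0.016 (turned values 0.014, 0.0068 and 0.016). With total-count scaling TPM2 was -0.020, MKL1 -0.0099 and MKL2 -0.056. MKL2 was -0.0091 without the filter, and ACTB was 0.010 with RLE and 0.0027 with DESeq2. With 7 to 21 reads per library, ACTG2 is limited by depth, and CNN1 more so.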
